A study of Rattus norvegicus with 6 samples.

Results

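Mitochondrial fatty acid oxidation was followed through 9 genes in rat cells: 3 carnitine palmitoyltransferases (Cpt1a, Cpt1c and Cpt2), 3 acyl-CoA dehydrogenases (Acadvl, Acadl and Acadm), both subunits of the trifunctional protein (Hadha and Hadhb) and the nuclear receptor gene Ppard. They were taken by symbol from a table of 33350 gene models, where each of the 9 symbols had 1 row. RNA was sequenced from 6 libraries labelled PC12, a line from a rat adrenal pheochromocytoma that is used as a model of sympathetic neurons. In the 3 EN libraries the cells had received exosomes, small secreted vesicles, from endothelial cells with a high expression of netrin-1 (NTN1), a secreted axon guidance protein. In the 3 EC libraries the exosomes came from control endothelial cells. All cells of both groups thus received endothelial exosomes, and no library of cells without exosomes was analysed here. The sources used here give neither the dose and time of exposure nor how netrin-1 was raised in the donor cells. The labels do not state whether replicates came from separate cultures, and the p-values therefore cover only the variation among these libraries, part of which may be technical.

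Long-chain fatty acids enter mitochondria as carnitine esters and are then shortened in cycles of dehydrogenation, hydration, a further dehydrogenation and thiolytic cleavage. The first dehydrogenation passes electrons to the electron transfer flavoprotein, and entry is held back by malonyl-CoA, the first intermediate of fatty acid synthesis. Transcription of the enzymes is driven by nuclear receptors, among them the peroxisome proliferator-activated receptors (PPARs), which bind DNA as partners of retinoid X receptors, and the estrogen-related receptor alpha. In the nervous system glia such as astrocytes are known for this pathway, while neurons rely mainly on glucose.

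The libraries held 16654025 to 19626012 reads in EN and 15296193 to 16165804 in EC, worked back from the FPKM values (read numbers scaled by gene length and library size). Ntn1, the gene raised in the donor cells, had 0, 2 and 0 reads in EN replicates 1 to 3 and 2, 0 and 0 in EC replicates 1 to 3, so its transcript gave no check on the labels. Of 14 chromaffin cell markers, 2 averaged 1 FPKM or more (Th and Slc18a2), and no read was counted for 4, Hand2 among them. The summed level of the chromaffin markers was 7.17 to 7.31 FPKM in EN and 7.07 to 8.21 FPKM in EC. Of 11 Schwann cell and glial markers in the table, 10 reached a mean of 1 FPKM, and their summed level was 420.4 to 453 FPKM in EN and 478 to 487 FPKM in EC. These levels go against the labelled cell type, so the libraries are called here only by their label. Of 10 tested Schwann and glial markers, 6 were lower and 1 was higher in EN (70.0% called, against 14.4% of all genes tested). Most of these markers thus differed between the groups, and their part in the results on oxidation genes was not tested. Endothelial markers summed to 13.3 to 14.1 FPKM in EN and 10.02 to 12.1 FPKM in EC, with Cldn5 at 0 reads. Of 11 endothelial markers in the table, 4 were tested, of which 1 was higher in EN, none was lower and 3 did not pass. That was 25.0% called, against 14.4% of all genes tested. In bulk RNA, fewer cells of a type and less RNA per cell cannot be told apart.

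None of the 8 members that could be tested passed the test between EN and EC. The test was limma on log2(FPKM + 1), two-sided, with a Benjamini-Hochberg adjusted p under 0.05 over all 12198 genes that averaged 1 FPKM or more. By that rule 14.4% of all genes were called, 7.24% higher and 7.14% lower in EN. At an unadjusted p under 0.05 there were 2 members, Hadhb and Ppard, both lower in EN, against 32.3% of all genes. limma voom on the whole reads called 1 member, Ppard, against 19.2% of all genes. The members' log2 differences ran from -0.21 (Ppard) to 0.12 (Acadm), with 4 positive and 4 negative and a median of -0.0059, beside a median of -0.0028 over all genes tested. Their median absolute difference was 0.095, against 0.13 over all genes tested. Cpt1c, at a mean of 0.0934 FPKM, was under the minimum and was not tested. The summed level of all 9 members was 434, 440.5 and 453 FPKM in EN replicates 1 to 3 and 449, 473 and 452 FPKM in EC replicates 1 to 3, so the groups overlapped.

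**Figure D1:**
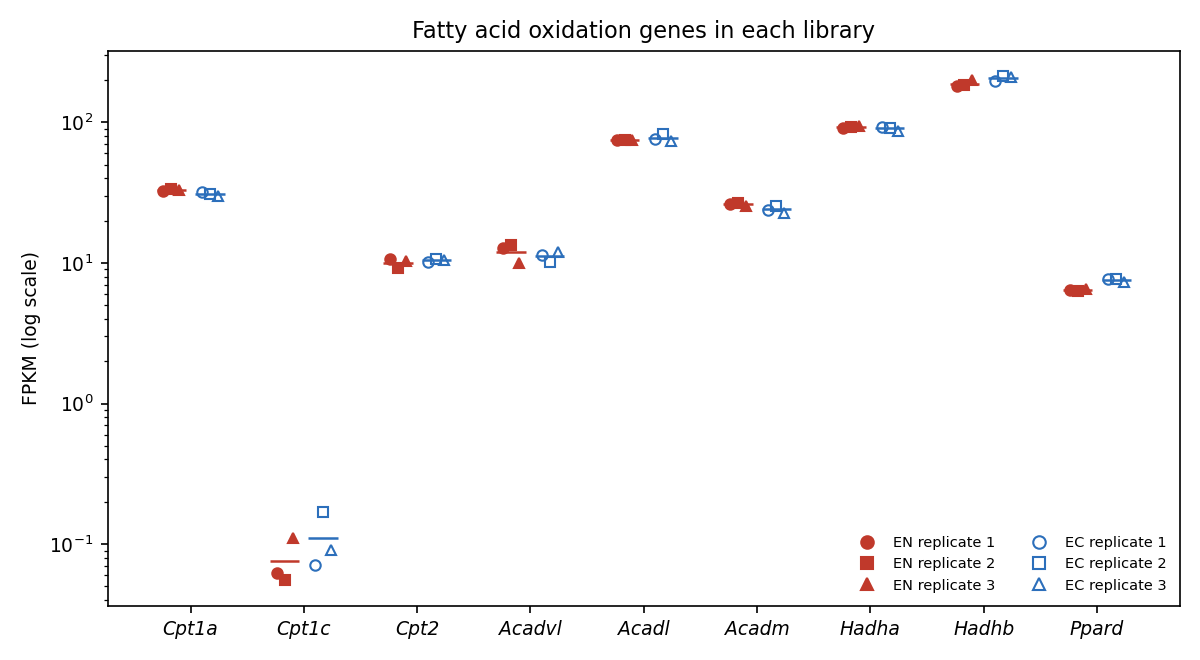
FPKM on a log axis for the 9 fatty acid oxidation genes, with 1 point per library (filled red EN, open blue EC) and a line at each group's mean (n = 3 each). Levels run from about 0.0934 FPKM for Cpt1c to 197 FPKM for Hadhb, and the EN and EC points lie close together within each gene except Cpt1c, which rests on 3 to 7 reads a library.

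Levels per length differed far more between the genes than between the groups. Over all 6 libraries the order was Hadhb at 197 FPKM, Hadha at 91.3, Acadl at 76.2, Cpt1a at 32.0, Acadm at 25.2, Acadvl at 11.6, Cpt2 at 10.2, Ppard at 6.995 and Cpt1c at 0.0934 FPKM. Each gene lay above the next in 6 of 6 libraries, with ranges that did not overlap, except Acadvl and Cpt2. These 2 kept that order in 4 libraries and could not be placed beyond their spread.

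Carnitine palmitoyltransferase 1 at the outer mitochondrial membrane makes the carnitine ester and is the step that malonyl-CoA inhibits. Its liver-type gene Cpt1a (chromosome 1, 218569510 to 218629678, plus strand, Rnor_6.0) had 32.3, 33.8 and 33.1 FPKM in EN and 32.0, 30.9 and 29.8 FPKM in EC. Every EN value lay above every EC value, by a narrow margin between EN replicate 1 and EC replicate 1. Such separation, in either direction, was seen in 37.9% of all genes tested (18.6% with EN above, 19.4% with EN below) and in 2 of the 8 members (Cpt1a and Ppard). The difference in log2(FPKM + 1) was 0.094 (SE 0.043, 95% interval -0.0079 to 0.20, limma adjusted p = 0.18). The muscle-type gene Cpt1b was at 1.12 ± 0.213 FPKM in EN and 1.07 ± 0.153 FPKM in EC (SD, n = 3 each). Its model overlaps that of Chkb on the same strand, a gene at 9.57 FPKM, so its reads are uncertain. Cpt1b was named after its values were seen. Cpt1c, a brain-enriched relative that sits in the endoplasmic reticulum (chromosome 1, 100955095 to 100969560), was read 3, 3 and 5 times in EN and 3, 7 and 4 times in EC. At 25 reads over all libraries no difference in Cpt1c was detectable at this depth. Cpt1a made up 96.1% to 97.1% of the summed FPKM of the 3 CPT1 genes in EN and 96.1% to 96.7% in EC.

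Cpt2, which returns the acyl group to coenzyme A at the inner membrane (chromosome 5, 127505614 to 127523089), had 10.6, 9.14 and 10.4 FPKM in EN and 10.1, 10.7 and 10.5 FPKM in EC. EN replicate 2 was the lowest of all, and the other 5 libraries lay close to each other. The log2 difference was -0.056 (SE 0.067, 95% interval -0.21 to 0.10, adjusted p = 0.60), and it turned to 0.0033 without EN replicate 2.

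**Figure D2:**
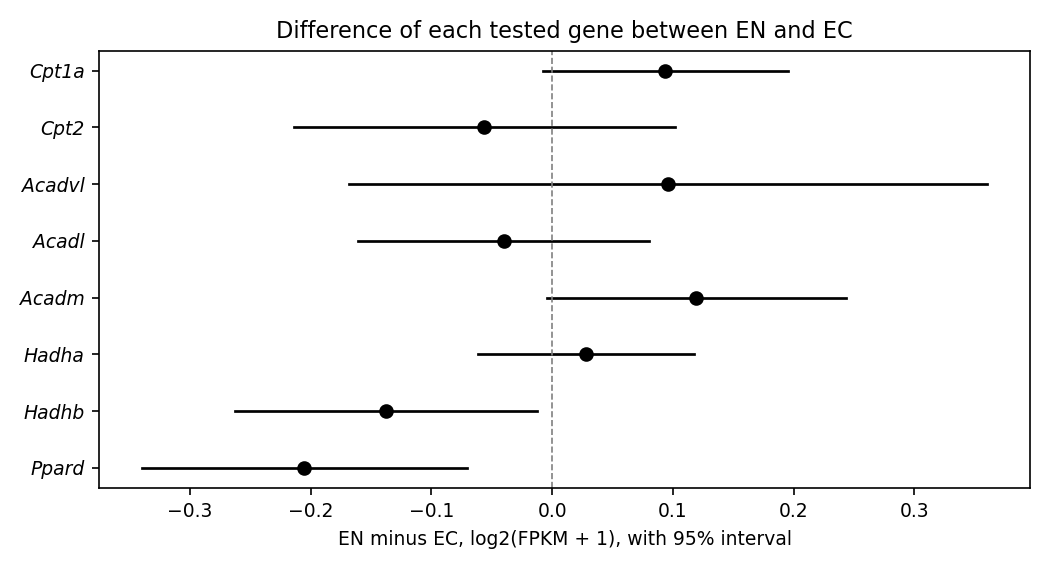
Difference in log2(FPKM + 1), EN minus EC, of the 8 tested members, with points for the estimate and bars for the limma 95% interval (n = 3 each). The intervals of Hadhb and Ppard lie below 0, the other 6 include 0, and Acadvl has the widest, from -0.17 to 0.36.

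The acyl-CoA dehydrogenases take fatty acids of falling chain length, Acadvl and Acadl the long chains and Acadm the medium chains. Acadl (chromosome 9, 73833388 to 73871888) had 75.1, 75.2 and 74.8 FPKM in EN and 75.8, 83.1 and 73.1 FPKM in EC. The EN values sat within the range of the EC values, and EC replicate 2 stood above the other libraries. Its log2 difference was -0.040 (SE 0.051, 95% interval -0.16 to 0.080, adjusted p = 0.63), and it was 0.012 without EC replicate 2. Acadm (chromosome 2, 260124418 to 260148589) had 26.3, 26.9 and 25.5 FPKM in EN and 23.9, 25.6 and 22.8 FPKM in EC. EN replicate 3 and EC replicate 2 had almost the same value, and the other EN libraries were above all of EC. The log2 difference of Acadm was 0.12 (SE 0.052, 95% interval -0.0046 to 0.24, adjusted p = 0.17).

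Acadvl, the very long-chain enzyme bound to the inner membrane (chromosome 10, 56619303 to 56624526), varied most among the tested members. It had 12.8, 13.3 and 10.01 FPKM in EN and 11.4, 10.1 and 12.0 FPKM in EC. EN replicates 1 and 2 were the highest and EN replicate 3 the lowest of all 6 libraries. The coefficient of variation was 14.9% in EN and 8.44% in EC, against 0.293% to 7.77% in EN and 2.70% to 6.66% in EC for the other tested members. The log2 difference was 0.096 (SE 0.112, 95% interval -0.17 to 0.36, adjusted p = 0.59), and 0.21 (adjusted p = 0.12) without EN replicate 3. Promoter windows from RefSeq, from 250 bases before to 50 bases after the gene start on GRCr8, were matched by symbol for 6 of the 9 members. The nuclear receptor half-site AGGTCA, searched on both strands, was in 2 of these 6 windows (Hadhb and Acadvl) and in 16.2% of all 33469 windows of that length. The longer forms TCAAGGTCA and AGGTCANAGGTCA, each of which holds AGGTCA, were in none of the 6 and in 0.433% and 0.0538% of all windows. The Acadvl window (chr10:55236656-55236955, minus strand) is shown because it held 2 half-sites, in capitals, 1 of them starting 17 bases before the gene start:
Acadvl: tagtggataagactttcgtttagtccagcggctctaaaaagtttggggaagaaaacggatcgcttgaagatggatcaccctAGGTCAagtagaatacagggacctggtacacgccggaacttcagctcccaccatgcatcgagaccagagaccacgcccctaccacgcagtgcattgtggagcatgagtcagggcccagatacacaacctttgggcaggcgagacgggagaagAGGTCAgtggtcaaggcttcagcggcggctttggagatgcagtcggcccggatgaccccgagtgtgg

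The short-chain dehydrogenase gene Acads was read for comparison and had 19.98, 18.8 and 18.2 FPKM in EN and 16.4, 17.2 and 14.5 FPKM in EC (adjusted p = 0.071). Acadl gave the largest part of the summed FPKM of these 4 genes in every library. Its part was 56.0%, 56.0% and 58.2% in EN and 59.5%, 61.1% and 59.7% in EC, all EN libraries below all EC libraries (exact two-sided permutation p = 0.1, the smallest that 3 against 3 can give). The 4 genes were set together after their values were seen. The ratio of Acadl to Acadvl FPKM overlapped between the groups (exact two-sided permutation p = 0.5).

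The trifunctional protein carries out the last 3 steps of the long-chain cycle, with hydratase and dehydrogenase activity in its alpha subunit (Hadha) and the thiolase in its beta subunit (Hadhb), which assemble in equal numbers. Hadha (chromosome 6, 27589657 to 27629175, plus strand) had 90.4, 92.4 and 93.7 FPKM in EN and 92.6, 91.4 and 87.1 FPKM in EC. The groups overlapped, and the log2 difference of 0.028 had the smallest error among the members (SE 0.038, 95% interval -0.061 to 0.12, adjusted p = 0.64). Hadhb (chromosome 6, 27555412 to 27582995, minus strand) had 180.1, 183 and 199 FPKM in EN and 196, 214 and 209.7 FPKM in EC. EN replicates 1 and 2 were below all EC libraries, and EN replicate 3 was above EC replicate 1. The log2 difference was -0.14 (SE 0.053, 95% interval -0.26 to -0.013, unadjusted p = 0.035, adjusted p = 0.12). Without EN replicate 3 the adjusted p of Hadhb was 0.048, and with any other library left out it was 0.080 or more.

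The subunit genes are neighbours that run in opposite directions, and the distance between their annotated starts differs between the annotations used here. The models behind the FPKM values have Ensembl identifiers and the promoter windows are from RefSeq, so build and annotation source cannot be told apart. In the Rnor_6.0 models behind the FPKM values 6661 bases lie between them, while on GRCr8 the annotated starts lie 301 bases apart and the promoter windows share 200 bases. The Hadha window (chr6:31907551-31907850, plus strand) is shown, with the part it shares with the Hadhb window in capitals:
Hadha: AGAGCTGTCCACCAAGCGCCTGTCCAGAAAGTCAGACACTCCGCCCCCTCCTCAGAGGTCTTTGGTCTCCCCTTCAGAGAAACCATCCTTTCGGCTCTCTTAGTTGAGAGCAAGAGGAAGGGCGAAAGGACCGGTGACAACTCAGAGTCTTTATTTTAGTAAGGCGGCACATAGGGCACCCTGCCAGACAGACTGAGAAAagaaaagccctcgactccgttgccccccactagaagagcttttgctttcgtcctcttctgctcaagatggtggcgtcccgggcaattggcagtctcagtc

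Transcript levels of the paired genes were not equal. The ratio of Hadhb to Hadha FPKM was 1.99, 1.98 and 2.12 in EN and 2.11, 2.34 and 2.41 in EC, so that Hadhb stood well above Hadha in every library. The mean ratio was 2.03 ± 0.078 in EN and 2.29 ± 0.155 in EC (SD, n = 3 each; exact two-sided permutation p = 0.2), with overlap between EN replicate 3 and EC replicate 1. Reads from the mitochondrial genome followed a similar order, at 4.402%, 4.71% and 5.503% of all reads in EN and 5.43%, 6.09% and 6.08% in EC. EN replicates 1 and 2 were lowest in both measures; the part of the mitochondrial share in the Hadhb values was not tested.

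**Figure D3:**
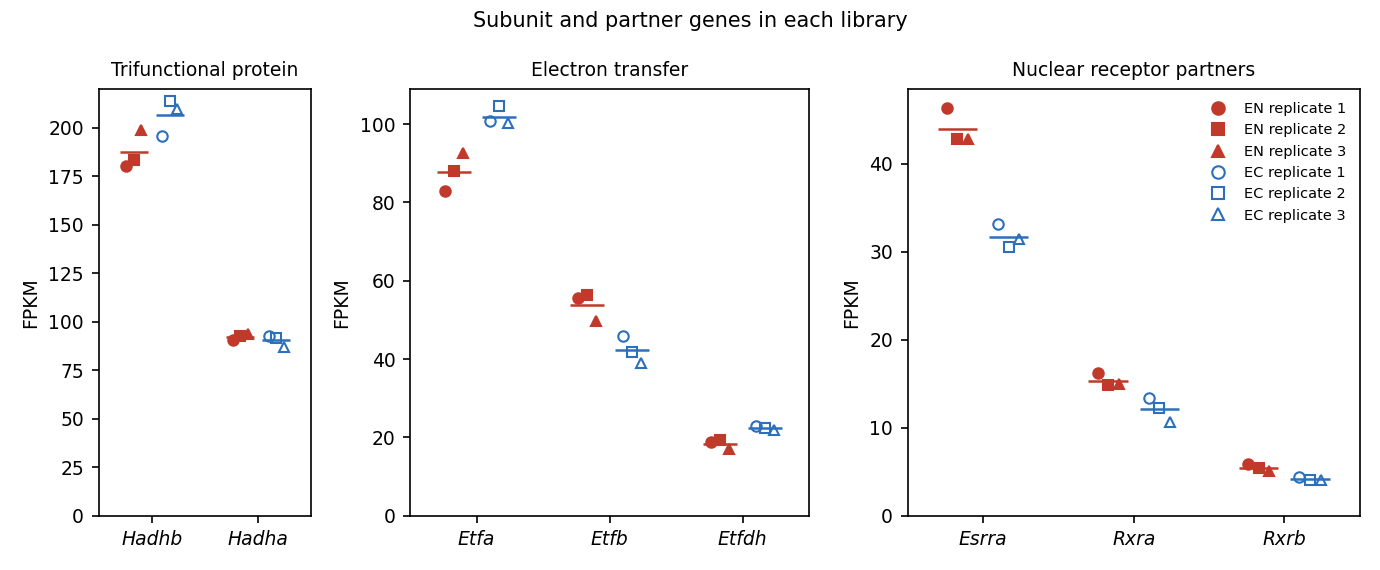
FPKM from 0 upward for the trifunctional protein subunits, the electron transfer genes and 3 nuclear receptor genes, 1 point per library (filled red EN, open blue EC) with a line at each group's mean. Etfb, Esrra, Rxra and Rxrb lie higher in EN, Etfa and Etfdh lower, and Hadhb shows overlap of EN replicate 3 with EC.

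Around the members, 16 other mitochondrial oxidation genes were tested, of which 12 did not pass, 3 were lower and 1 was higher (25.0% called, against 14.4% of all genes). Of these 4, 3 make up the electron transfer chain that takes electrons from the acyl-CoA dehydrogenases, and they moved in different directions. Etfb, the beta subunit of the electron transfer flavoprotein, had 55.6, 56.3 and 49.6 FPKM in EN and 45.9, 41.9 and 39.1 FPKM in EC (log2 difference 0.34, SE 0.073, limma adjusted p = 0.028). Etfa, the alpha subunit, had 82.8, 88.1 and 92.5 FPKM in EN and 101, 105 and 100.4 FPKM in EC (log2 difference -0.21, SE 0.048, adjusted p = 0.031). Neither gene's groups overlapped. Etfdh, whose product hands the electrons on to ubiquinone, had 18.8, 19.2 and 17.1 FPKM in EN and 22.9, 22.4 and 21.8 FPKM in EC (log2 difference -0.27, SE 0.056, adjusted p = 0.025). The ratio of Etfb to Etfa was 0.671, 0.639 and 0.536 in EN and 0.456, 0.400 and 0.389 in EC. The other one was Acot9, a mitochondrial acyl-CoA thioesterase, at 37.4 ± 1.54 FPKM in EN and 45.2 ± 1.07 FPKM in EC (adjusted p = 0.015). All 4 lost the call without EN replicate 1, EN replicate 2, EC replicate 2 or EC replicate 3, with an adjusted p of up to 0.11 (Etfa). Etfa and Etfdh also lost it without EC replicate 1.

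In the remaining steps, Acaa2, the mitochondrial thiolase, was listed at 0 in all 6 libraries, and Echs1, the short-chain hydratase, had 8, 11 and 9 reads in EN and 6, 3 and 4 reads in EC. The Echs1 model overlaps that of Paox on the other strand, and whether reads were counted by strand is not stated in any source used here. Hadh, the medium- and short-chain hydroxyacyl-CoA dehydrogenase, was at 16.2 ± 0.671 FPKM in EN and 17.7 ± 0.602 FPKM in EC (adjusted p = 0.15). The isomerase gene Eci1 was at 31.7 ± 4.25 FPKM in EN and 30.3 ± 2.19 FPKM in EC (adjusted p = 0.74). Hadh and Eci1 did not pass, and were named together with Acaa2 and Echs1 after their values were seen.

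Among 14 tested genes of carnitine handling and CPT1 control, 1 was higher, 1 was lower and 12 did not pass. That was 14.3% called, about the same share as the 14.4% of all genes tested. Acaca, the acetyl-CoA carboxylase that makes malonyl-CoA, had 23.3, 25.2 and 27.1 FPKM in EN and 29.6, 31.3 and 31.9 FPKM in EC (log2 difference -0.29, SE 0.062, adjusted p = 0.029). Acacb, the form tied to the mitochondrial surface, was under the minimum at a mean of 0.102 FPKM in EN and 0.0758 FPKM in EC. Mlycd, which breaks malonyl-CoA down, was at 5.35 ± 0.295 FPKM in EN and 5.61 ± 0.401 FPKM in EC (adjusted p = 0.64). Acacb and Mlycd were named after their values were seen. Prkag1, a regulatory subunit of AMP-activated protein kinase, had 13.9, 14.1 and 14.1 FPKM in EN and 12.2, 11.9 and 12.3 FPKM in EC (log2 difference 0.19, SE 0.044, adjusted p = 0.033). Its model is 18552 bases long. Prkag1 lost the call with each library left out in turn (adjusted p of 0.054 to 0.12). Acaca lost it without EN replicate 1, EN replicate 2, EC replicate 2 or EC replicate 3, with an adjusted p of up to 0.10.

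Ppard, the PPAR form found in most tissues (chromosome 20, 7818289 to 7885333, plus strand), came nearest to the threshold among the members. It had 6.44, 6.33 and 6.52 FPKM in EN and 7.68, 7.71 and 7.31 FPKM in EC. Every EN library was below every EC library, and the mean was 15.0% lower in EN, at 6.43 ± 0.098 FPKM against 7.56 ± 0.221 FPKM in EC (SD, n = 3 each). In log2(FPKM + 1) the difference was -0.21 (SE 0.057, 95% interval -0.34 to -0.070, unadjusted p = 0.0087, adjusted p = 0.056). The gene passed without the variance trend (adjusted p = 0.045), with protein-coding models only (0.049) and with limma voom (0.031), and it did not pass with any library left out (0.074 to 0.17). Each library held 607 to 708 Ppard reads. Rcan1 and Pcyt1a were among the 3 genes whose values followed those of Ppard most closely over the 6 libraries, out of 9203 other genes that averaged 5 FPKM or more. Their log2 values, centred on each gene's mean, differed from those of Ppard by 0.0108 for Rcan1 and 0.0175 for Pcyt1a on average.

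The other PPAR genes were low. Ppara, the form of liver and other oxidative tissues, was at 2.28 ± 0.361 FPKM in EN and 2.43 ± 0.215 FPKM in EC, while the coactivator gene Ppargc1a averaged 0.0200 FPKM in EN and 0.0240 FPKM in EC and Pparg had still lower means in both groups. Ppara, Ppargc1a and Pparg were chosen for mention once their values were known. Of 16 tested partners and coactivators, 4 were higher in EN, none was lower and 12 did not pass. That was 25.0% called, against 14.4% of all genes tested. Esrra, the estrogen-related receptor alpha, had 46.4, 42.8 and 42.8 FPKM in EN and 33.1, 30.5 and 31.4 FPKM in EC (log2 difference 0.46, SE 0.051, adjusted p = 0.0052). Its model overlaps that of Trmt112 on the other strand, a gene at 60.8 FPKM. The Esrra values were separated between the groups, and the gene kept the call with each library left out (adjusted p of up to 0.032).

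The retinoid X receptor genes Rxra and Rxrb, whose products pair with PPARs, were among the 4 genes higher in EN. Rxra had 16.2, 14.9 and 14.9 FPKM in EN and 13.4, 12.2 and 10.6 FPKM in EC (log2 difference 0.33, SE 0.085, adjusted p = 0.048). Rxrb had 5.88, 5.46 and 5.06 FPKM in EN and 4.44, 4.07 and 4.05 FPKM in EC (log2 difference 0.32, SE 0.080, adjusted p = 0.043). Rxra kept the call only without EC replicate 1 and Rxrb only without EN replicate 3, with an adjusted p of up to 0.14 and 0.13 among the other 5 fits.

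**Figure D4:**
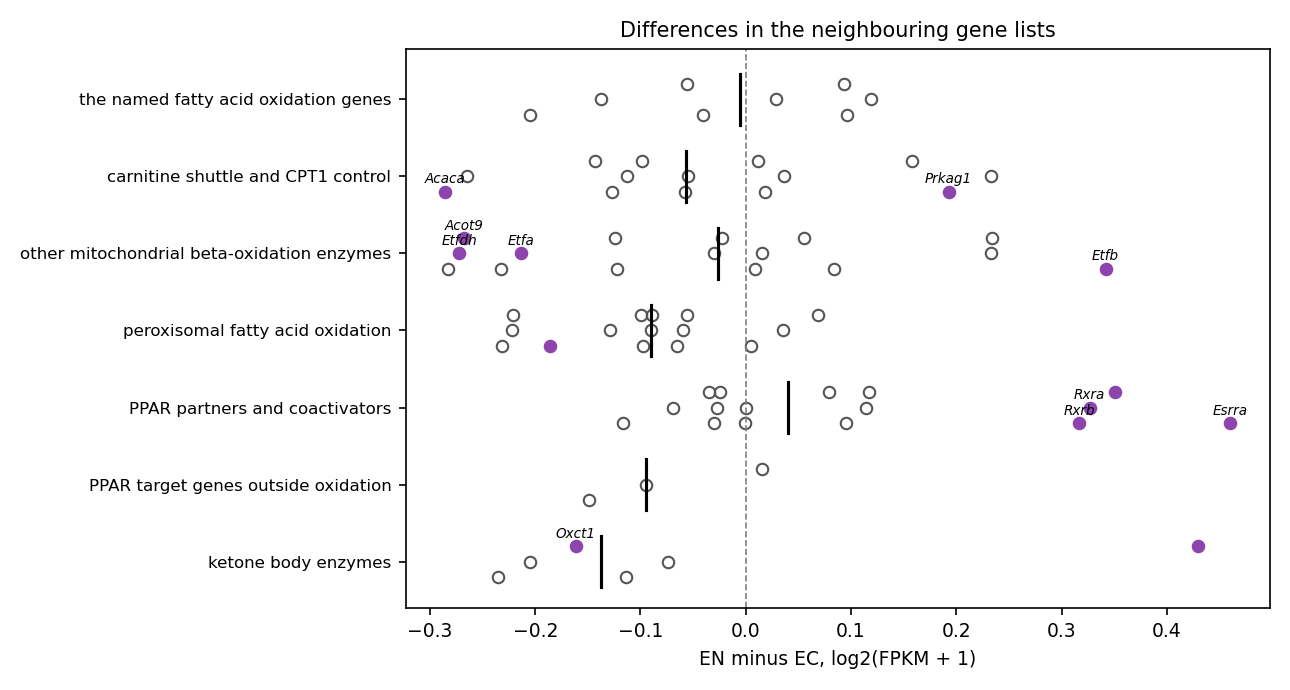
Difference in log2(FPKM + 1), EN minus EC, for every tested gene of the members and of 6 neighbouring lists, 1 point per gene, filled where the adjusted p was under 0.05, with names for the filled genes described in the text and a line at each list's median. The members lie between -0.21 and 0.12 with no filled point, and Esrra lies farthest to the right at 0.46.

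PPAR target genes outside the oxidation steps were mostly low. Of 13 in the table, 10 were under the minimum, and none of the 3 tested passed. Cd36, a fatty acid transporter, was listed at 0 in all libraries. Its model overlaps those of RGD1565355 and LOC685953 on the same strand, which were also at 0, so its absence is uncertain. The lipid droplet gene Plin2, a common readout of PPAR activity, had 70.7, 71.3 and 72.7 FPKM in EN and 70.7, 73.0 and 68.7 FPKM in EC, with overlap between the groups (adjusted p = 0.81). Pdk4, the kinase that turns pyruvate dehydrogenase off, was at 6.12 ± 0.469 FPKM in EN and 6.96 ± 1.29 FPKM in EC (adjusted p = 0.45). The third was Txnip (adjusted p = 0.52). All 3 were named after their values were seen.

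Peroxisomes shorten very long and branched chains by a parallel route. Of 15 tested genes of that route, 1 was lower and 14 did not pass, with none higher (6.67% called, against 14.4% of all genes). Their median log2 difference was -0.090, beside -0.0028 over all genes tested. Negative values made up 12 of 15, beside 6173 of 12198 over all genes tested. Among 6 ketone body genes 1 was higher, 1 was lower and 4 did not pass (33.3% called). Oxct1, which activates acetoacetate for use as fuel, had 60.1, 61.8 and 63.1 FPKM in EN and 69.5, 68.1 and 69.5 FPKM in EC (log2 difference -0.16, SE 0.035, adjusted p = 0.029). Oxct1 kept the call only without EN replicate 3, with an adjusted p of up to 0.10 among the other 5 fits.

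Over all 6 lists together, 13 of 70 tested genes were called, 7 higher and 6 lower, or 18.6%, against 14.4% of all genes. Of these 13, 2 kept the call with each library left out in turn, Esrra among them. The total fell to 2 without EN replicate 1, EN replicate 2, EC replicate 2 or EC replicate 3 and to 8 without EC replicate 1. Without the expression filter Acaca, Etfa, Etfb, Rxra and Rxrb did not pass (adjusted p of 0.060 to 0.10), and without the variance trend Acaca, Etfa, Etfb, Rxra and Oxct1 were among those that did not (0.056 to 0.072). With the replicate number as a block Prkag1 did not pass (adjusted p = 0.055).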

How the data were processed

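Trizol extraction of total RNA and an Illumina TruSeq preparation are given, per the labels' protocols. The authors deposited 1 table of FPKM for 33350 gene models with symbols, coordinates and lengths. The submitters' processing notes name HISAT2 2.0.5 and the build Rnor_6.0. No source used here states the counting tool, the annotation release or the strand setting.

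Multiplied by gene length, the FPKM of a library stepped in whole reads (100% of values, to within 0.001), which gave the read numbers. Between libraries of the same group these read numbers differed by more than counting error, with a chi-square per degree of freedom of 3.99 to 9.57. Groups were compared with limma 3.58.1 (R 4.3.3) on log2(FPKM + 1) with a variance trend and group as the only term, for genes that averaged 1 FPKM or more across the 6 libraries. Exact permutation tests used SciPy 1.17.1. The share of true differences that limma misses in these libraries was not tested. Differences are EN minus EC in log2(FPKM + 1), a scale that makes changes of low genes look smaller.

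Members and gene lists were chosen with earlier results of these data known. Of 138 list entries, 133 matched a symbol and 5 did not. Named genes are the 9 members, Ntn1, up to 4 genes past the test from each of 6 pathway lists and the 3 genes most like Ppard; others are said to be named after their values were seen, and a few genes that fall under this rule are not reported here. Alternatives were other pseudocounts, filters, scalings and terms, each library left out and, added after the data were seen, limma voom. edgeR and DESeq2 were planned for counts and not run, since the deposited unit is FPKM.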

Additional observations from a re-analysis of the deposited data

How the results depend on the processing

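No alternative changed the direction of a member's difference except the loss of single libraries: Acadl was between -0.079 and 0.012 and Cpt2 between -0.093 and 0.0033 in the 6 fits with 1 library left out. The number of members past the threshold was 0, and 1 without the variance trend, with protein-coding models only and with limma voom (Ppard each time, lower in EN); it was 0 to 1 with 1 library left out (Hadhb without EN replicate 3). The genes called over the whole table were 1754, against 866 without a filter, where more genes were tested, 1019 without the trend, and 338 to 2059 with 1 library left out (338 to 446 without EN replicate 1, EN replicate 2, EC replicate 2 or EC replicate 3, 1616 without EC replicate 1 and 2059 without EN replicate 3). Pathway genes called were 13, against 8 without a filter, 7 without the trend, and 2 to 12 with 1 library left out. The cause of these shifts was not tested. No scaling moved the median of all genes by more than 0.1. The replicate numbers are shared between groups but did not pair the libraries: deviations of same-numbered libraries from their group means correlated at 0.088, -0.095 and -0.020 over genes. With the number as a block, 1907 genes and 0 members were called. The edgeR and DESeq2 fits were not run, since the deposited unit is FPKM, and summing the rows of a symbol gave no value, since each member has 1 row. The 95% intervals of the tested members reach as far from 0 as 0.12 (Hadha) to 0.36 (Acadvl) on the log2 scale, and Cpt1c was too low in reads to test.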
